A study of Mus musculus with 5 samples.

Results

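Matrix glycoproteins, their receptor Cd44 and the cytokine Tgfb1 were followed in the soleus, a slow postural calf muscle, of 5 C57Bl/6 mice. The 8 genes, Thbs1, Thbs2, Thbs3, Tnc, Tnxb, Fn1, Cd44 and Tgfb1, were chosen by name from the array's annotation, among 203 named genes. They were read by 9 of the 223 probes, because Fn1 had 2 probes, which were kept apart. The titles mark the animals as wild type and number them 1, 3, 4, 5 and 6. The mice had been reloaded for 7 days, according to the series title, and each array received 3 microgram of total RNA from frozen sections of the muscle. The titles also carry the letters HUR, and reloading presupposes that the muscles had been unloaded before, for a time not stated here. Beyond this the labels give the mice no other treatment, no age and no clone or transgene. This group is the only one analysed here, so no difference between conditions was tested. The results describe how the genes differed between the 5 mice.

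Thrombospondins and tenascins are matricellular glycoproteins, which change how cells attach to the matrix more than they bear load themselves. Thrombospondin 1 is known for activating latent TGF-beta and for restraining blood vessel growth through the receptors Cd36 and Cd47. Tenascin C is made at the muscle-tendon junction and around fibres under load or repair, and tenascin XB organises collagen fibrils in resting connective tissue. Fibronectin is the provisional matrix protein that integrins bind, and Cd44 is a cell surface receptor for hyaluronan.

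The intensities are in arbitrary units whose reference is not given in the sources used here. Totals per array ran from 70.8 to 137 and medians from 0.0130 to 0.0338. Part of any difference between mice in the deposited values therefore belongs to the whole array. The brightest probe alone gave 35.4% to 46.0% of an array's total, so scaling to the total leans on that probe. Values below 0 occurred on every array, the lowest being between -0.0041 and -0.0168, and the size of an array's lowest value is used below as a mark of how far background can move a spot. All 9 probes were above 0 on all 5 arrays, as were 147 of the 223 probes (65.9%). All 6 muscle fibre markers on the array were above 0 in every mouse. So were 2 of 2 fibroblast and mural cell markers and 6 of 6 endothelial markers. Being above 0 is a weak criterion, which most probes met, and it does not identify the tissue. Of the 7 listed immune genes only 2, the cytokines Il1b and Il6, were on the array. Both were at or below 0 in every mouse, and the presence or absence of immune cells cannot be read from them. The arrays carry bulk RNA, so fewer cells of a type and less RNA per cell cannot be told apart.

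Thbs1 stood highest in mouse 6 under every scaling used. Its deposited intensity was 0.0714, 0.0789, 0.0451, 0.0388 and 0.1826 in mice 1, 3, 4, 5 and 6. Mice 4 and 5 were the lowest and close to each other, and every value was at least 3.77 times the size of its array's lowest value. After quantile normalisation, which gives all arrays the same distribution of intensities, the level was 0.0726 ± 0.0255 (SD, n = 5), and the highest mouse was 2.17 times the lowest. Thbs1 was therefore measured clear of the background in all mice.

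Thbs2, a trimeric thrombospondin that shapes collagen fibrils and also restrains vessel growth, gave a dim signal that almost vanished in mouse 5. Deposited intensities were 0.0280, 0.0196, 0.0073, 0.0001 and 0.0183 in mice 1, 3, 4, 5 and 6. The value in mouse 5 was 0.00971 of the size of that array's lowest value, so it bounds the signal only by the background. Mouse 5 also had the most probes at or below 0, 59 against 20 to 53 on the other arrays, and the part of this in the Thbs2 value was not tested. The SD between mice was 2.005 on the log2 scale after quantile normalisation, the widest of the 146 probes tested, and 0.77 without mouse 5. The order of the other mice, with mice 1 and 3 high and mouse 4 low, does not rest on that spot, although these values were only 1.67 to 3.32 times the size of the lowest value.

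Thbs3, a pentameric thrombospondin best known from the skeleton, gave a signal close to the background. It read 0.0168, 0.0096, 0.0062, 0.0010 and 0.0151 in mice 1, 3, 4, 5 and 6. In mice 1 and 5 these values were no larger than the size of the lowest value on the array, at 1.00 and 0.0971 times it. The high reading of mouse 1 is therefore uncertain, and so is the low one of mouse 5. Quantile-normalised levels were 0.00776 ± 0.00345 (SD, n = 5).

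**Figure D1:**
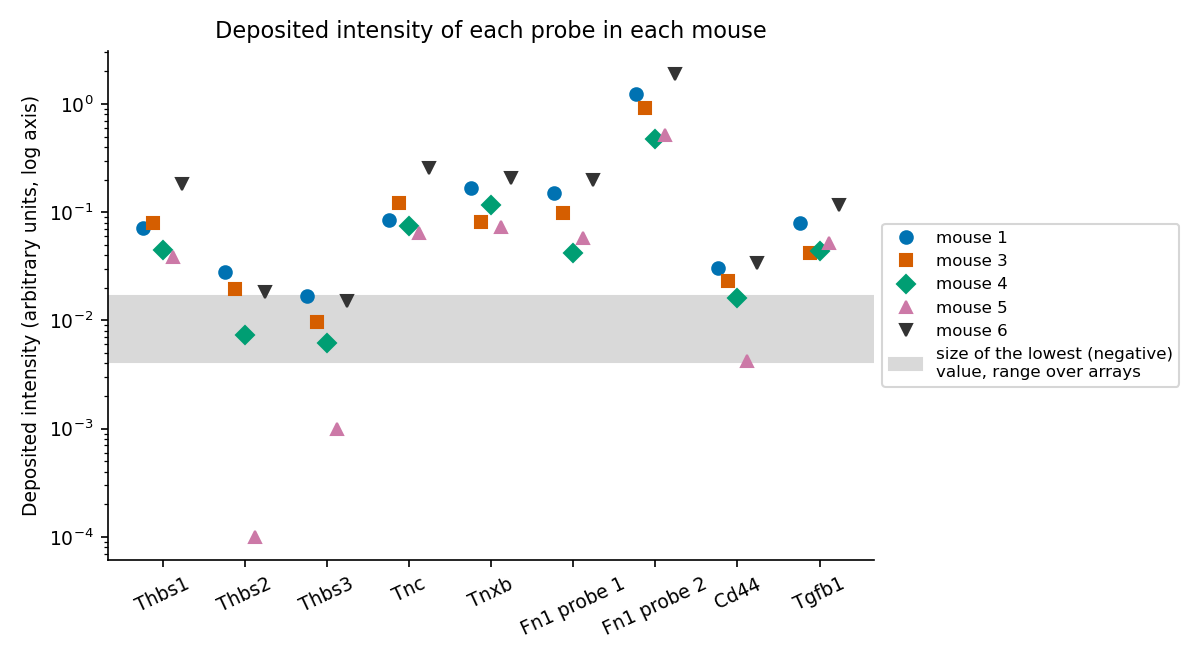
Deposited intensity (arbitrary units, log axis) of each of the 9 probes, 1 point per mouse, with a grey band for the size of the lowest, negative value on the 5 arrays, from 0.0041 to 0.0168. Thbs2, Thbs3 and Cd44 reach into or below the band, with mouse 5 lowest, while the other 6 probes lie above it in every mouse.

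Tenascin C and tenascin XB ordered the mice differently. Tnc read 0.0855, 0.1226, 0.0750, 0.0636 and 0.2563 in mice 1, 3, 4, 5 and 6. Mice 6 and 3 were the highest under each of the 4 scalings: none, by the array median, by the array total and by quantiles. After quantile normalisation Tnc was at 0.113 ± 0.0425 (SD, n = 5), and mice 3 and 6, at 0.155 and 0.164, were apart from mice 1, 4 and 5, at 0.0785 to 0.0842.

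Tnxb read 0.1685, 0.0815, 0.1155, 0.0733 and 0.2089 in mice 1, 3, 4, 5 and 6. Mouse 3, high for Tnc, was the lowest or next to the lowest for Tnxb under the same scalings. Tnxb had the smallest CV of the 9 probes (SD over mean), 19.2% after quantile normalisation, around a level of 0.122 ± 0.0235 (SD, n = 5). Its CV was 44.8% as deposited, where differences between whole arrays add to it.

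The ratio of 2 intensities on one array does not depend on any factor that multiplies the whole array, so it shows unequal change between genes without a choice of scaling. Its size depends on the 2 probes and says nothing about which transcript is the more abundant. The Tnc to Tnxb ratio was 0.507, 1.504, 0.649, 0.868 and 1.23 in mice 1, 3, 4, 5 and 6. Mice 3 and 6 had the highest ratios and mouse 1 the lowest, a 2.96-fold range. The mean log2 ratio was -0.18 ± 0.64 (SD, n = 5). Over all 10731 pairs of measured probes the median SD of the log2 ratio was 0.75, and 60.2% of pairs had a larger SD than Tnc to Tnxb. The 2 tenascins thus parted about as far as an ordinary pair of probes on these arrays. The order of the mice in this ratio, from low to high 1, 4, 5, 6 and 3, was the same with quantile-normalised values and with the size of the lowest value added to every intensity.

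The sequences before the start sites of Tnc, Tnxb and Thbs2 are shown because the ratios above and below turn on these genes. They are from RefSeq (GRCm38.p6), which gave windows for 6 of the 8 genes. Thbs1 and Fn1 were not matched. Each is the 250 bases before the start, 5′ to 3′, on the gene's strand. Tnc has 2 listed starts, 79 bases apart, and the upstream one is printed. The windows are chr4:64047016-64047265 (minus strand) for Tnc, chr17:34670285-34670534 (plus strand) for Tnxb and chr17:14694263-14694512 (minus strand) for Thbs2. Capitals mark matches on either strand to a TATA box (TATANA), an AP-1 site (TGANTCA), an SP1 site (GGGCGG) or an EGR1 site (GCGNGGGCG), the last 2 of which overlap in Tnc.
Tnc: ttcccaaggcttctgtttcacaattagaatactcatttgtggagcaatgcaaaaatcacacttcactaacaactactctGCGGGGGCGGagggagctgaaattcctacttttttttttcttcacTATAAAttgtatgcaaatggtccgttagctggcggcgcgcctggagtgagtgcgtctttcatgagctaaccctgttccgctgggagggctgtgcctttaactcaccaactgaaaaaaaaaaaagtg
Tnxb: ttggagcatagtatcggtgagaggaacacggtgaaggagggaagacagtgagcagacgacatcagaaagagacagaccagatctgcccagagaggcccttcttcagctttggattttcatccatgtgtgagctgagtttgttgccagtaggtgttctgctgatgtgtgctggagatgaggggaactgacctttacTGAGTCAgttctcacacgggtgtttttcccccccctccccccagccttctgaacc
Thbs2: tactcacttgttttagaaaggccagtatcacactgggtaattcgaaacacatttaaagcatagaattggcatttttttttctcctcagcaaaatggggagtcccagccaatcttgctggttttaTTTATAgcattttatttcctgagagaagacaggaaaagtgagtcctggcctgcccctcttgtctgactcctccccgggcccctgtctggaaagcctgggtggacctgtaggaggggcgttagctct
In Tnc, the TATA match began 126 bases before the printed start, and the other listed start had matches beginning 205 and 29 bases before it. The Tnxb window held 1 AP-1 match and no TATA match. The Thbs2 window held 1 TATA match on the opposite strand. Such letters are common: of 32851 windows of this length, 22.6% held the TATA match, 6.75% the AP-1 match, 32.7% the SP1 match and 4.70% the EGR1 match. No match to the CArG box, held by 1.47% of windows, or to the SMAD palindrome (GTCTAGAC), held by 0.167%, was in the 3 windows. A match describes the letters only.

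The Thbs1 to Thbs2 ratio was 2.55, 4.03, 6.18, 388 and 9.98 in mice 1, 3, 4, 5 and 6. The value of mouse 5 comes from the Thbs2 intensity of 0.0001 and has no reliable size. Without mouse 5 the range was 3.91-fold, with a mean log2 ratio of 2.33 and an SD of 0.84. With the size of the lowest value added to both intensities, the ratios were 1.97, 3.33, 4.32, 4.72 and 6.63 in mice 1, 3, 4, 5 and 6. As deposited, quantile normalised and with the constant, mouse 1 had the lowest ratio, mouse 3 the next and mouse 4 the third, so these arrays showed more Thbs2 signal relative to Thbs1 in mouse 1 than in mouse 6. The top place moved from mouse 5 to mouse 6 with the added constant.

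**Figure D2:**
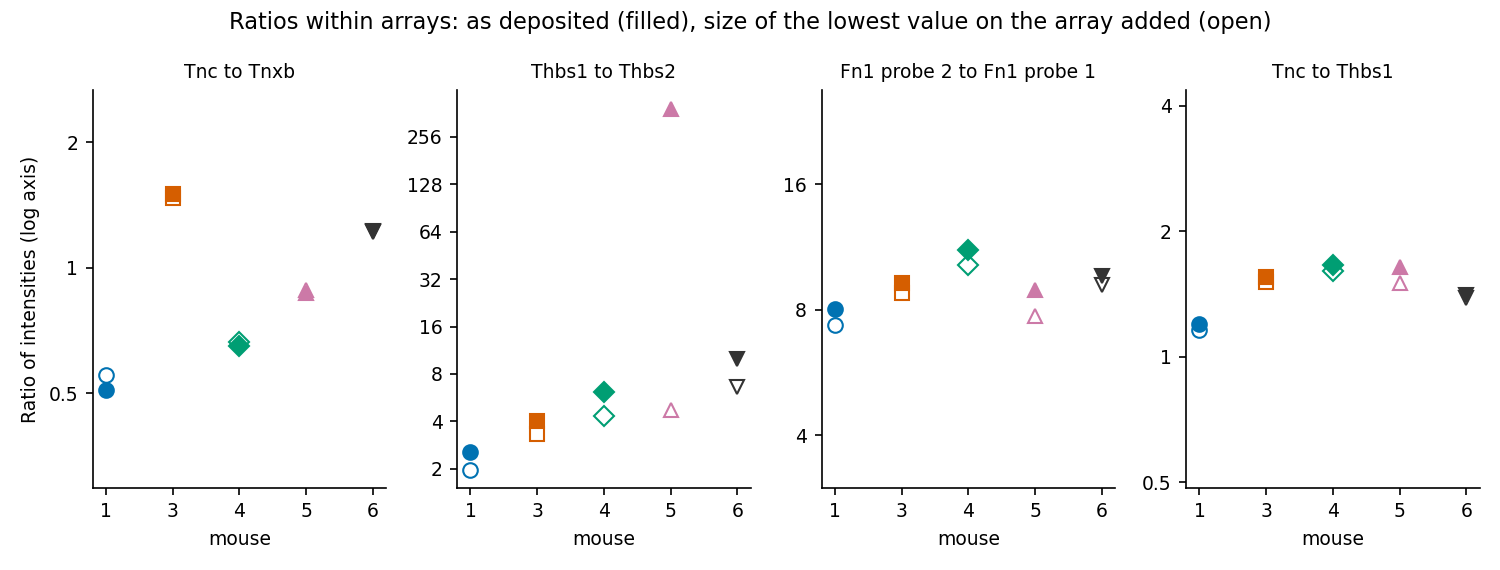
Ratio of 2 intensities on each of the 5 arrays (log axis), as deposited (filled) and with the size of the array's lowest value added to both intensities (open). Tnc to Tnxb ranged over 2.96-fold, Thbs1 to Thbs2 over 152-fold as deposited but 3.37-fold with the constant, and the 2 Fn1 probes and Tnc to Thbs1 each over 1.39-fold.

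Fibronectin gave the mice in one order through both of its probes when the deposited values were read directly. The first probe read 0.1521, 0.0990, 0.0423, 0.0582 and 0.1973 in mice 1, 3, 4, 5 and 6. The second read 1.2251, 0.9164, 0.4723, 0.5195 and 1.8982. Both were highest in mouse 6, then mouse 1, mouse 3 and mouse 5, and lowest in mouse 4. The annotation assigns both probes to the same sequence record, so their shared order is not agreement between independent sequences. The cause of the gap in level between them was not tested.

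The ratio of the second Fn1 probe to the first was 8.05, 9.26, 11.2, 8.93 and 9.62 in mice 1, 3, 4, 5 and 6. Its range was 1.39-fold, and the SD of its log2 was 0.17, which 98.6% of all probe pairs exceeded. Quantile normalisation widened the range of this ratio to 2.13-fold and put mouse 1 highest for the first probe and mouse 6 highest for the second. On that scale the second probe, among the brightest on the array, took 0.954 in both mouse 1 and mouse 3 and 1.64 in mouse 6. The disagreement of the Fn1 probes over the highest mouse was thus absent from the deposited values. Scaled to the total, both probes were highest in mouse 6; scaled to the median, the first was at 0.140 in mouse 1 against 0.128 in mouse 6.

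Tnc and Thbs1 kept a nearly fixed proportion across the mice. The Tnc to Thbs1 ratio was 1.20, 1.55, 1.66, 1.64 and 1.40 in mice 1, 3, 4, 5 and 6. Its SD was 0.20 on the log2 scale, and 97.9% of all probe pairs had a larger one. Among the 36 pairs of the 9 probes this was the narrowest after the pair of Fn1 probes, and it was singled out after the values were seen. The next were Thbs1 with the second Fn1 probe, at 0.30, and Tnxb with Tgfb1, at 0.33. By contrast Tnc to the second Fn1 probe had an SD of 0.46, or 0.16 without mouse 1, where the Fn1 to Tnc ratio was 14.3 against 6.30 to 8.17 in the other mice.

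The median SD over the 36 pairs was 0.82, beside 0.75 for all pairs of measured probes. Over the 21 pairs that leave out Thbs2 and Thbs3 it was 0.59. The pairs share arrays and probes, so they are not independent, and the shares are descriptions.

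Cd44 was lowest in mouse 5 under every scaling used. Its deposited intensities were 0.0307, 0.0230, 0.0161, 0.0042 and 0.0338 in mice 1, 3, 4, 5 and 6. The value of mouse 5 was below the size of the array's lowest value, 0.0103, and is uncertain in the same way as for Thbs2 and Thbs3. After quantile normalisation Cd44 was at 0.0203 ± 0.00758 (SD, n = 5), with a CV of 37.3% that was 18.0% without mouse 5. Thbs3 was also lowest in mouse 5. The SD of the log2 ratio of Cd44 and Thbs3 was 0.45 with that mouse and 0.22 without it. Without mouse 5 the normalised log2 SD of Cd44 itself was 0.24, so little variation was left to share. No value over all pairs without that mouse was computed to set beside 0.22.

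Tgfb1, the growth factor that drives synthesis of fibronectin and other matrix proteins, did not order the mice as Thbs1 did. It read 0.0787, 0.0421, 0.0439, 0.0517 and 0.1160 in mice 1, 3, 4, 5 and 6. Mouse 6 was highest under every scaling used. Mouse 3, next to the highest for Thbs1 and Tnc, was the lowest for Tgfb1 under each of them. The quantile-normalised level was 0.0615 ± 0.0134 (SD, n = 5), a CV of 21.8%.

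The Cd44 to Tgfb1 ratio was 0.390, 0.546, 0.367, 0.0812 and 0.291 in mice 1, 3, 4, 5 and 6. The low ratio of mouse 5 carries the uncertain Cd44 value, and without that mouse the range was 1.87-fold. Mouse 3 was at the top of this ratio, as of Tnc to Tnxb.

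**Figure D3:**
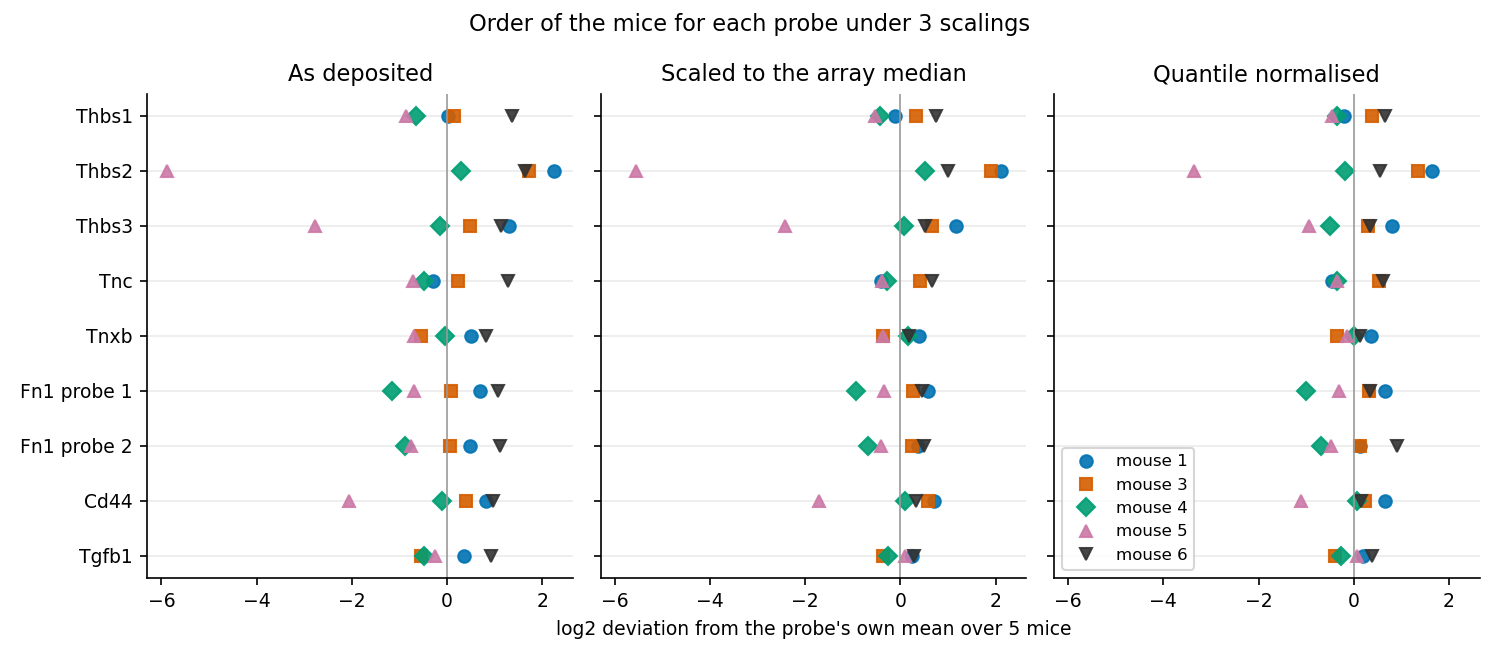
Log2 deviation of each mouse from the probe's own mean over 5 mice, for values as deposited, scaled to the array median and quantile normalised, 1 point per mouse. Mouse 6 is above the mean for all 9 probes in each panel, mouse 5 is below it for 9, 8 and 8 of them, and the low points of mouse 5 shrink with quantile normalisation.

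Read against the other probes of the same array, the genes were relatively high in mice 6, 3 and 1 and low in mice 4 and 5. The measure is the median log2 deviation of the 9 probes from their own means, less that of all 147 measured probes, so a factor of the whole array cancels. It was 0.52, 0.35, 0.16, -0.32 and -0.33 in mice 6, 3, 1, 4 and 5. The median probe was exceeded by all 9 probes in mouse 6, by 7 each in mice 3 and 1, by 4 in mouse 4 and by 1 in mouse 5. Single probes spread around these medians with SDs of 0.25, 0.67, 0.74, 0.45 and 1.78 in the same order, and the shifts were not tested. Without Thbs2, Thbs3 and Cd44, a choice made after seeing the data, the values were 0.50, 0.26, 0.08, -0.40 and -0.29.

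The probes that departed from the common order can be named. In mouse 1, Tnc and Thbs1 were below the median probe, at -0.63 and -0.33, while Thbs2 and Thbs3 were above it, at 1.90 and 0.96. The last 2 values are taken from means that the uncertain readings of mouse 5, at -5.47 and -2.35, pull down. Thbs2 was as high in mouse 3, at 1.92, and the Thbs3 reading of mouse 1 was no larger than the size of the array's lowest value. In mouse 3, Tnxb and Tgfb1 were below it, at -0.36 and -0.35, and the other 7 probes above. In mouse 5, Tgfb1 alone was above it, at 0.18. In mouse 4 the lowest were the Fn1 probes, at -0.99 and -0.73. Mouse 6 therefore showed the one direction that held for each of the 9 probes, with Tnxb the smallest at 0.22. That count depends on mouse 5: with mouse 5 left out, 8 of the 9 probes were above the median probe in mouse 6.

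Spread between mice was tested with limma, which sets each probe's log2 variance against a trend in mean intensity over all 146 probes tested. None of the 9 probes was called wider or narrower after Benjamini-Hochberg adjustment (smallest adjusted p = 0.89 for wider and 0.87 for narrower). Over all probes 0% were called wider and 0% narrower. At an unadjusted p under 0.05 in limma, 1 of the 9, Thbs2, was wider and 0 were narrower, beside 4.79% and 5.48% of all probes. The second Fn1 probe had an SD 2.38 times the trend and Thbs2 one of 2.55 times, against 0.66 times for Tnxb and 0.73 times for Tgfb1. The median over the 9 probes was 1.23 times the trend, and over all 146 probes 1.02 times.

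With the values as deposited, Thbs2 was called wider by limma (adjusted p = 0.0050, range over the alternatives 0.0050 to 0.93), in a background of 1.36% of probes. That call was lost without mouse 5, a choice made after seeing the data: the SD of the deposited log2 values fell from 3.37 to 0.83, with limma's adjusted p = 0.93. Measurement noise and differences between animals cannot be told apart here, since each RNA was hybridised to 1 array.

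**Figure D4:**
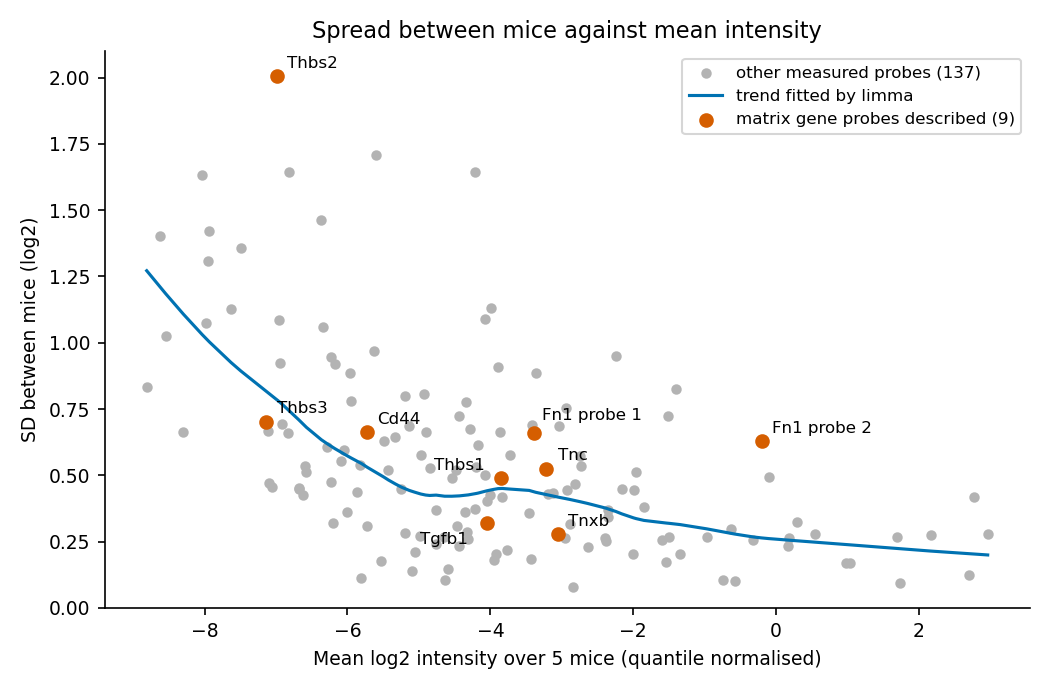
SD between the 5 mice (log2) against mean log2 intensity, both quantile normalised, for the 9 probes described (orange) and 137 other probes (grey), with limma's fitted trend as a line. Thbs2 has the widest SD on the plot, at 2.005, the second Fn1 probe lies at 0.63 where the trend is at 0.26, and Tnxb and Tgfb1 lie below the line.

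Genes with the most similar pattern were sought by the root mean square difference of log2 deviations over the 5 arrays, after quantile normalisation. The nearest to Thbs1 was Timp2, an inhibitor of matrix metalloproteinases, at 0.12, with Tnc next at 0.14. The median over the 139 named probes of other genes was 0.62. As deposited, the Thbs1 to Timp2 ratio stayed between 0.307 and 0.475. The nearest to Tnc was Thbs1, at 0.14, and the nearest to the second Fn1 probe was also Thbs1, at 0.27.

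The first Fn1 probe was nearest to Mmp14, a membrane metalloproteinase, at 0.32. Thbs3 was nearest to the IGF binding protein Igfbp3, at 0.19, and Cd44 to Thbs3, at 0.29. Tnxb was nearest to the glycolytic enzyme Gapdh, at 0.12, and Tgfb1 to a probe of Igf1, at 0.17. Thbs2 had no near match, the closest being the kinase Csk at 0.62. Patterns of narrow spread lie near each other by this measure whatever their order, and with 5 arrays a likeness is a description only.

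Of the wider pathway, none of the 16 TGF-beta pathway genes listed beside Tgfb1 was among the named genes of the array. On it were 6 of 24 listed receptors, 8 of 26 other matrix genes and 15 of 21 proteases and inhibitors. Above 0 in every mouse were 5, 5 and 8 of them. In limma none of these 18 probes was called wider or narrower (smallest adjusted p = 0.89 and 0.80), and 0 were at an unadjusted p under 0.05 in either direction. Their median log2 SD was 0.47, beside 0.63 for the 9 probes above and 0.47 for all 146 tested.

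Among receptors the widest was Itga2, an integrin chain that binds collagen, with a log2 SD of 0.66 at a dim 0.00347 ± 0.00167 (SD, n = 5). The narrowest was Itgb5, at 0.21. Among matrix genes the laminin chain Lamb1 was widest at 0.92 and Lamb2 narrowest at 0.18. Among proteases and inhibitors Mmp10 was widest at 1.07 and the inhibitor Timp1 narrowest at 0.36. Deposited Mmp10 was below the size of the array's lowest value in mice 1, 3, 4 and 5, and Lamb1 in mice 5 and 6. The spreads of these dim probes are therefore uncertain. Cd36, a receptor for thrombospondin 1, was lowest in mouse 1 and highest in mouse 4 after quantile normalisation, at 0.168 and 0.380. That order was unlike the order of Thbs1. As deposited, Cd36 was highest in mouse 6, at 0.355, as Thbs1 was. Its lowest deposited value was in mouse 3, at 0.182, where Thbs1 was next to the highest. Mmp9 and Mmp8 were at or below 0 in every mouse, which bounds them only by the background.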

How the data were processed

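Gene expression in soleus was measured on 5 arrays of 223 probes. The authors deposited linear intensities in arbitrary units; how they were scanned and scaled is not given in the sources used here. Gene names came from the platform annotation (205 named, 18 not; 204 of the 205 found in the GRCm38.p6 gene table). Column medians ran from 0.0130 to 0.0338, so log2 intensities of the 147 probes above 0 on all arrays were quantile normalised (limma 3.58.1, R 4.3.3); 1 unnamed probe, brightest on every array, was left out of tests. Levels are on the linear normalised scale. Ratios were taken on deposited values. Spread between mice was tested with limma's robust variance trend (fitFDistRobustly, statmod 1.5.0) and Benjamini-Hochberg adjustment at 0.05, after a check on simulated data. Precision is limited by the number of arrays, 5. The labels do not say how the animals were sampled, so p-values measure only the spread between these samples.

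The genes, lists and rules were chosen with earlier results of these data known. Named besides the 8 genes were the widest and narrowest gene of each pathway class and the nearest pattern of each probe; Cd36, Cd44 with Thbs3, Mmp8 and Mmp9, and pairs other than the tenascins, the thrombospondins 1 and 2 and the Fn1 probes were singled out with their values in view. The alternatives tried were the deposited values, scaling to the median or total, a floor for values at or below 0, leaving out the dimmest 25% of probes or each mouse, an added constant, a non-robust trend and, added after seeing the data, leaving out the 3 dim genes or mouse 5 from the deposited values.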

Additional observations from a re-analysis of the deposited data

Results flagged for a closer look

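Of 26 sets of 5 values checked (9 probes as deposited and normalised, and 8 ratios), 3 held a mouse far from the others by Dixon's criterion of 0.71. Chance flags about 1 in 20 independent sets, and these share arrays and probes. The deposited Thbs1 intensity was highest in mouse 6, with a gap of 0.721 of the range, on an array whose median intensity was the highest of the 5; quantile normalised, Thbs1 did not meet the criterion. The log2 Thbs1 to Thbs2 ratio was highest in mouse 5 (gap 0.728 of the range) and the log2 Thbs2 to Thbs3 ratio lowest in mouse 5, at a ratio of 0.100 (gap 0.818). Both rest on the Thbs2 intensity of 0.0001.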

How the results depend on the processing

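All 9 probes stayed above 0 in every setting that keeps them; leaving out the dimmest 25% removed 2, which leaves 7, and the Thbs1 to Thbs2 ratio then has no value. The count of probes called wider or narrower was 0 in each setting but the values as deposited with all mice, where it was 1, Thbs2. The mean log2 Tnc to Tnxb ratio was -0.17 with normalised values, -0.16 with the added constant and -0.38 to 0.01 leaving out each mouse, the positive value being without mouse 1. The mean log2 Thbs1 to Thbs2 ratio, 3.58, was 3.14 normalised, 1.96 with the constant and 2.33 to 4.14 leaving out each mouse. The Fn1 probe ratio, 3.23, was 3.10 to 3.28 throughout. Of 88 comparisons of 2 mice within a probe, 87 kept their order with median scaling, 84 with a floor, 81 as deposited and 74 scaled to the total. The shift of the genes against all probes kept its sign for each mouse in each setting; leaving out a mouse moved it between 0.14 and 0.25 for mouse 1, 0.15 and 0.56 for mouse 3, -0.53 and -0.12 for mouse 4, -0.55 and -0.24 for mouse 5, and 0.41 and 0.58 for mouse 6. The log2 SD moved by over 1.5 times for 7 of 9 probes as deposited. Without mouse 4 that of the first Fn1 probe was 0.40, and without mouse 5 that of Cd44 was 0.24. Signal over background limits Thbs2, Thbs3 and Cd44.

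No paired analysis was possible because the samples form 1 group.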

Other observations

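Timp2 moved with Tnc as well as with Thbs1. Its normalised intensities were 0.178, 0.249, 0.164, 0.149 and 0.264 in mice 1, 3, 4, 5 and 6, high in mice 3 and 6 as Tnc was, and the deposited Tnc to Timp2 ratio stayed within a 1.60-fold range. Another inhibitor, Timp3, ran from 0.0324 in mouse 3 to 0.0767 in mouse 1, and Timp1 was highest in mouse 6, at 0.0745. The 3 inhibitors thus did not share one order. Plasminogen (Plg), a precursor made mainly in liver, gave a dim 0.0161 ± 0.00637 (SD, n = 5) and was also among the patterns nearest to Tnc, at 0.19. The Thbs3 to Igfbp3 ratio, of 2 dim probes, stayed between 0.714 and 1.02 as deposited. In mouse 5 its Thbs3 value was 0.0010, below the size of that array's lowest value, 0.0103. The ratio of that mouse therefore has no reliable size. These genes were chosen after their values were seen.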
